A study of Arabidopsis thaliana with 18 samples.

Results

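The genes described here are 7 defence-related WRKY transcription factors of Arabidopsis thaliana, out of 22746 probe sets that are not array controls. They were taken by their probe sets on the array: WRKY70 (AT3G56400, 251705_at), WRKY38 (AT5G22570, 249890_at), WRKY18 (AT4G31800, 253485_at), WRKY40 (AT1G80840, 261892_at), WRKY33 (AT2G38470, 267028_at), WRKY53 (AT4G23810, 254231_at) and WRKY6 (AT1G62300, 264746_at). The platform's gene table used here names 2 of these probe sets, WRKY53 and WRKY6. For the other 5, the link from probe set to gene comes from the definition of the gene set and not from that table. All 7 passed the filter on dim signals.

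WRKY factors are plant proteins named for a conserved amino acid motif in their DNA-binding domain, and they bind W boxes in the promoters of defence genes, among them promoters of WRKY genes themselves. Salicylic acid is the hormone of defence against biotrophic pathogens, and it acts largely through the co-regulator NPR1. WRKY70 and WRKY38 are known as salicylic acid-responsive genes downstream of NPR1, WRKY18, WRKY40 and WRKY33 respond quickly to microbial patterns and many stresses, and WRKY53 and WRKY6 are known from leaf senescence as well as defence.

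Total RNA from plants of the accession Est was hybridised to Affymetrix ATH1 arrays, 1 sample each. Plants of both treatments received the surfactant silwet at 0.02%, which helps a solution wet leaves, and 9 of the 18 samples also had 0.3 mM SA, read here as salicylic acid. Each treatment carries the replicate numbers 1, 2 and 3, each on 3 arrays. What distinguishes those 3 arrays, and whether the RNA was from different plants, is not labelled, so the p-values refer to scatter among these arrays, part of which may be technical. Tissue, plant age, genotype beyond the accession and the time between treatment and sampling are not stated in the labels. Ordered by the running number in their titles, the arrays of a treatment pass through replicates 1 to 3 repeatedly. A set of 3 such arrays is called a title run. The silwet runs are titles 37 to 39, titles 40 to 42 and titles 43 to 45, and the SA runs are titles 46 to 48, titles 49 to 51 and titles 52 to 54. No label pairs an SA run with a silwet run, so each SA run was compared with all 3. This division had been made with the data in view. First, next and later runs are so called by title number, as no label gives a time.

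Signals are MAS5 intensities on a linear scale, with array medians of 27.4 to 35.7. Differences are on the log2(signal + 16) scale, which understates changes of dim genes, and folds are ratios of signal + 16. Tests are limma fits over 17059 probe sets with Benjamini-Hochberg adjustment, and a gene passed at an adjusted p under 0.05. No tissue is labelled. The 4 leaf photosynthesis genes that could be measured, LHCB4.2, PRK, RCA and SBPASE, had signals from 811 to 3646 over all arrays, while the 3 root hair and root cell wall genes EXPA18, EXPA7 and AT3G54580 did not exceed 16.8. As each sample is a mixture of cells, more expressing cells and more RNA per cell cannot be told apart.

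All 7 WRKY genes had their highest run mean in SA titles 46 to 48, and 5 of them, WRKY38, WRKY18, WRKY53, WRKY40 and WRKY70, rose there against every silwet run. Among these 5, the smallest of the 3 differences was 2.22 (4.65-fold) for WRKY38 and 0.88 (1.84-fold) for WRKY70. The order depended on the silwet run: against titles 40 to 42 the largest rise was that of WRKY40 (3.17, and 2.89 for WRKY38), and against titles 43 to 45 WRKY40 (3.69) and WRKY53 (2.91) rose more than WRKY38 (2.72). WRKY33 and WRKY6 were also higher than each silwet run on average but did not pass. These calls are from the fit without the replicate number as a block, and with that block WRKY33 passed too. In the other SA runs none of the 7 differed from every silwet run. WRKY40, WRKY33 and WRKY53 were in addition high in silwet titles 37 to 39, without SA.

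**Figure D1:**
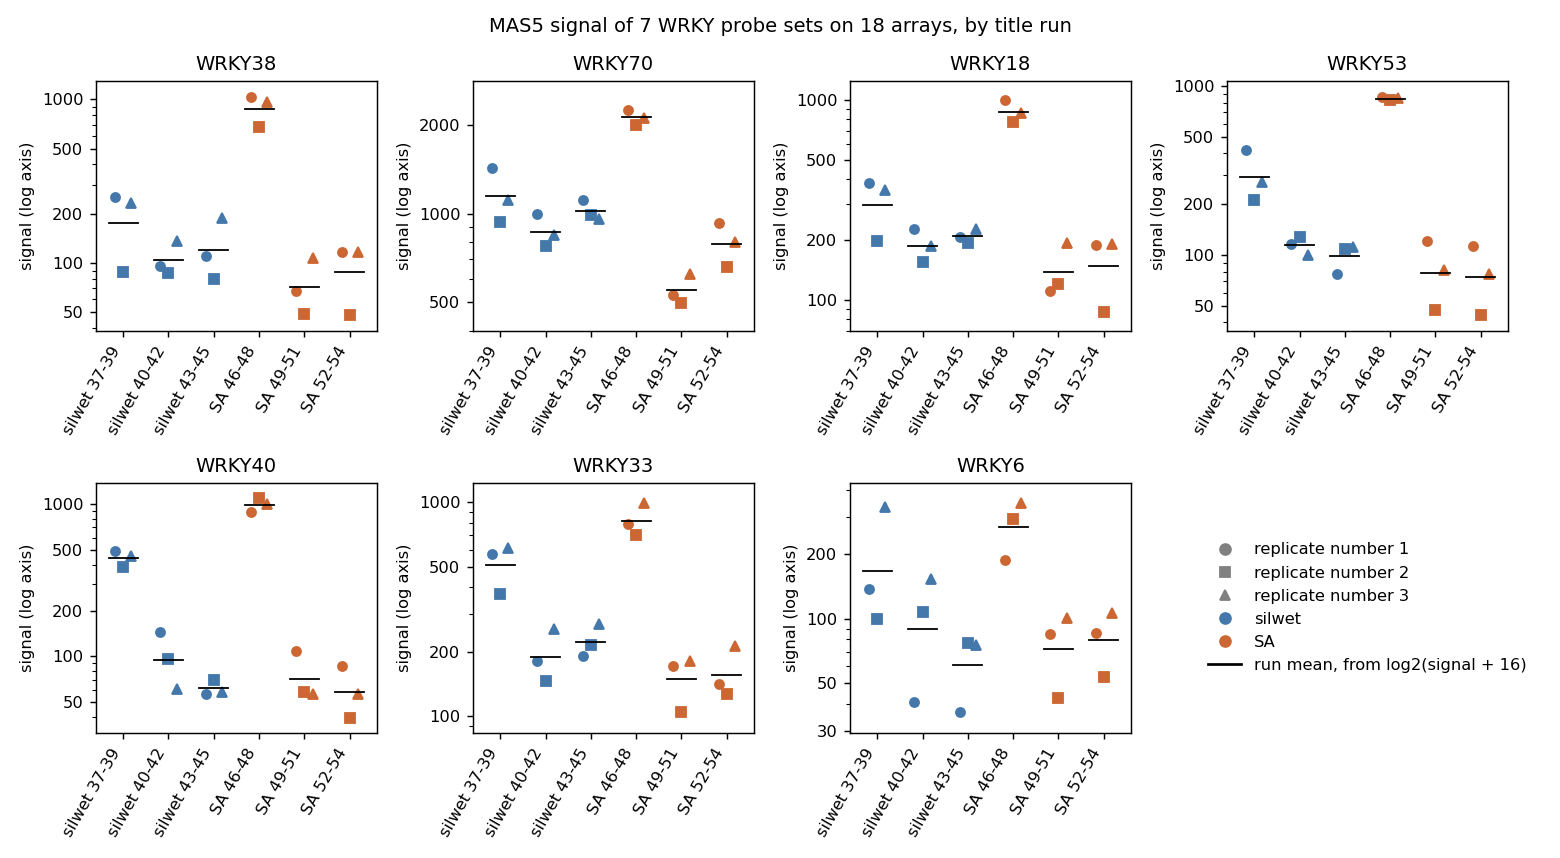
MAS5 signal of each WRKY probe set (log axis) on each of the 18 arrays, grouped by title run (3 arrays each); symbols give the replicate number, colours the treatment and bars the run mean. SA titles 46 to 48 lie above all 9 silwet arrays for 6 genes, WRKY6 being the exception, and silwet titles 37 to 39 lie above the other 6 silwet arrays for WRKY40, WRKY33 and WRKY53.

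WRKY70, an activator of salicylic acid-responsive genes that also dampens jasmonate responses, had signals of 2262, 2006 and 2118 on SA arrays 46, 47 and 48. With silwet alone it read 1433, 941 and 1118 (titles 37 to 39), 997, 779.9 and 846 (40 to 42) and 1112, 989 and 962 (43 to 45). The 3 SA arrays were thus above all 9 silwet arrays, whose own spread was small. The mean of this run was 11.06 ± 0.09 (log2, SD, n = 3) against 10.18 ± 0.30, 9.79 ± 0.18 and 10.02 ± 0.11. The smallest of the 3 differences was 0.88 (limma adjusted p = 0.00970 against all silwet runs).

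In SA titles 49 to 51 WRKY70 had the opposite position, reading 531, 499 and 626, below every silwet array. The next run, SA titles 52 to 54, read 934, 660.5 and 800.3 and overlapped the silwet range. Its differences for titles 49 to 51 were -1.04, -0.65 and -0.87 against silwet 37 to 39, 40 to 42 and 43 to 45. Only the first passed (limma adjusted p = 0.00175, against 0.341 and 0.112), and with the replicate number as a block the last passed too (limma adjusted p = 0.0110). Taken against all 3 silwet runs together, WRKY70 did not pass here (limma adjusted p = 1, or 0.283 with the replicate number as a block). It was the only one of the 7 genes whose 3 arrays of this run all lay below the 9 silwet arrays, as 150 of 17059 probe sets (0.879%) did.

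WRKY38, which has been described as a histone deacetylase partner that limits basal defence, gave signals of 1033, 678 and 964 on SA arrays 46, 47 and 48. With silwet alone it gave 255, 88.8 and 234 (titles 37 to 39), 95.6, 86.8 and 137 (40 to 42) and 111, 79.7 and 189.6 (43 to 45). The lowest of these SA arrays was more than double the highest silwet array. Its differences were 2.22, 2.89 and 2.72 against the 3 silwet runs in that order, each with a standard error of 0.37 (limma adjusted p = 0.00581 against all silwet runs). In the later SA runs WRKY38 read 67.6, 49.0 and 107 (49 to 51) and 116, 48.0 and 117 (52 to 54), which overlapped the silwet range.

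WRKY18 and WRKY40 encode closely related proteins that bind each other and restrain defence together. WRKY18 read 991, 777 and 860 in SA titles 46 to 48, against 382, 196 and 353, then 225, 154 and 185, then 206, 193 and 226 in the 3 silwet runs. All 3 SA arrays were above all 9 silwet arrays, and the smallest difference was 1.49 (2.82-fold, limma adjusted p = 0.00957 against all silwet runs). WRKY18 read 111, 119.7 and 193 in SA titles 49 to 51 and 188, 87.1 and 190.0 in 52 to 54. These last 2 runs differed from silwet titles 37 to 39 (-1.04 and -0.95, limma adjusted p = 0.0396 and 0.0485) but not detectably from the later silwet runs.

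WRKY40 shared the high SA run, with 881, 1100.1 and 992 in titles 46 to 48. Unlike WRKY18, it was also clearly raised in the first silwet run: titles 37 to 39 read 489.9, 387 and 455. The 6 later silwet arrays read 144, 96.3 and 61.2 (40 to 42) and 56.9, 70.2 and 58.7 (43 to 45). The smallest SA difference, 1.13, was that against silwet titles 37 to 39 (2.19-fold), and the largest, 3.69, that against titles 43 to 45. The limma adjusted p was 0.0267 for the pair with titles 37 to 39 and 0.0352 against all silwet runs. Its call against all silwet runs was close to the threshold: with an offset of 1 in place of 16 the limma adjusted p was 0.0712, and without the filter on dim signals 0.0509. In the later SA runs WRKY40 read 109, 58.1 and 56.9 (49 to 51) and 86.5, 39.5 and 57.2 (52 to 54).

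WRKY33, a mitogen-activated protein kinase target required for camalexin production and resistance to necrotrophic fungi, read 794, 700.2 and 987 in SA titles 46 to 48. The first silwet run read 573, 372 and 609, close below, while the later silwet runs read 181, 146 and 254 (40 to 42) and 191, 214 and 269 (43 to 45). Arrays of the SA run were above all silwet arrays, but the difference from silwet titles 37 to 39 was 0.68 with a standard error of 0.25, and it did not pass (limma adjusted p = 0.237 against all silwet runs). With the replicate number as a block it passed (limma adjusted p = 0.0194). Against the later silwet runs WRKY33 rose by 2.03 and 1.81 (limma adjusted p = 5.50e-05 and 0.000120). SA titles 49 to 51 read 172, 104 and 180.3 and titles 52 to 54 read 141, 126 and 211.

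WRKY53, a promoter of leaf senescence with roles in basal resistance, was the most uniform of the group in SA titles 46 to 48, at 858, 825 and 850.4. The silwet runs read 419, 213 and 273 (37 to 39), 117, 128 and 99.96 (40 to 42) and 77.6, 109 and 111 (43 to 45). It rose against every silwet run, with differences of 1.49 (2.81-fold), 2.72 and 2.91 (limma adjusted p = 0.0144 against all silwet runs). In the later SA runs it read 122, 47.3 and 81.5 (49 to 51) and 114, 44.5 and 77.8 (52 to 54), where in both the array of replicate number 2 was the lowest.

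WRKY6, linked to senescence and to the phosphate starvation response, varied most between arrays of a run, with a pooled SD within runs of 0.61 against 0.20 to 0.53 for the other genes. SA titles 46 to 48 read 187, 292.6 and 346, and silwet titles 37 to 39 read 138, 99.6 and 332.5, so the groups overlapped. Silwet titles 40 to 42 read 40.6, 108 and 154 and titles 43 to 45 read 36.6, 76.9 and 75.6. WRKY6 rose against these 2 runs by 1.42 and 1.89 (limma adjusted p = 0.0249 and 0.00464) but not detectably against titles 37 to 39 (difference 0.62, standard error 0.42). The later SA arrays read 84.5, 42.5 and 100.3 (49 to 51) and 85.9, 53.6 and 106 (52 to 54), within the silwet range.

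Against all silwet runs together, 5 of 7 genes rose in SA titles 46 to 48, where 1.69% of all tested probe sets passed, 1% as higher and 0.692% as lower. Against the silwet runs taken singly, 5 genes rose relative to titles 37 to 39 (WRKY33 and WRKY6 did not pass), all 7 relative to titles 40 to 42 and all 7 relative to titles 43 to 45, where 1.58%, 9.95% and 8.46% of all probe sets rose. The median of the smallest differences was 1.13 over the 7 genes. Over the 10909 probe sets with the same sign against all 3 silwet runs it was -0.04. SA arrays of this run lay above all 9 silwet arrays for 6 of 7 genes, which 5.93% of the tested probe sets did. With the replicate number as a block, 6 WRKY genes and 698 probe sets passed, against 289 probe sets without it, and 2.24% of probe sets passed as higher. With 6 arrays fewer, none of the 7 passed without replicate 2 or without replicate 3, while their smallest differences were still 0.23 to 1.96 and 0.67 to 2.34, and 2 and 10 probe sets passed in all. Without replicate 1, also with 6 arrays fewer, 5 of the 7 passed and 415 probe sets in all.

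Single arrays were left out in turn, in fits without the replicate block. WRKY38 passed in all 18 cases, WRKY70 and WRKY18 in 17, WRKY53 in 15, WRKY40 in 10, and WRKY33 and WRKY6 in 0. The number of the 7 genes that passed was 1 without silwet title 38 and 3 without SA title 47 or SA title 48, and in the other 15 cases it was 4 or 5. WRKY70, WRKY18 and WRKY53 had adjusted p-values of 0.0753, 0.0707 and 0.0969 without title 38, with smallest differences of 0.74, 1.21 and 1.28. WRKY53 had adjusted p-values of 0.0670 without title 47 and 0.0584 without title 48. WRKY40 lost its call without titles 37, 38, 39, 41, 44, 45, 47 or 48, with differences from 1.04 to 1.20. The sign did not change for any of the 7 genes in these cases.

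**Figure D2:**
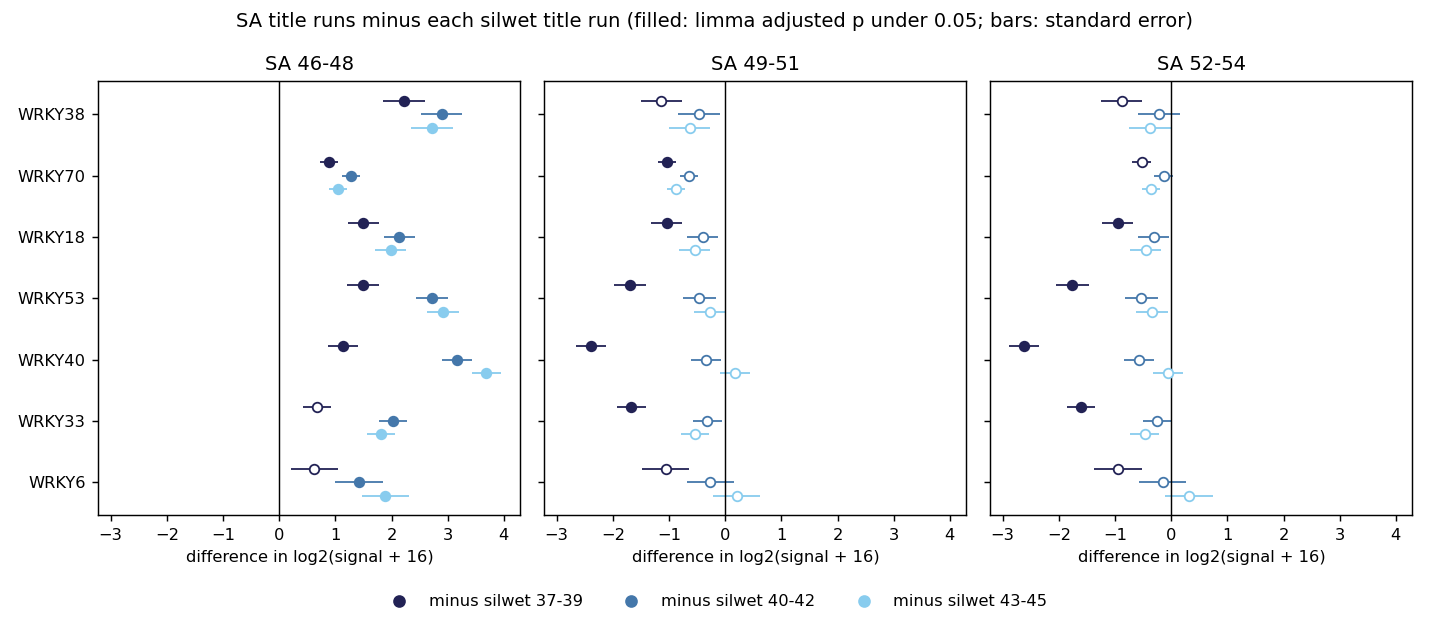
Difference in log2(signal + 16) between each SA title run and each silwet title run for the 7 genes; bars are limma standard errors, and filled points have an adjusted p under 0.05. In SA titles 46 to 48 all points lie above 0, and in the later SA runs the filled points are differences from silwet titles 37 to 39, all below 0.

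In mean, most of the genes were lower in the later SA runs than in the later silwet runs. None of these differences passed without the replicate block. Against silwet titles 40 to 42, all 7 genes were lower in SA titles 49 to 51 (-0.65 to -0.27) and in titles 52 to 54 (-0.58 to -0.13), and 0 passed in either, as did 0% of all probe sets. Over all probe sets, 42.9% and 47.8% were lower in these 2 pairs. Against silwet titles 43 to 45, WRKY40 and WRKY6 had differences of 0.17 and 0.20 in SA titles 49 to 51, and WRKY6 had 0.32 in titles 52 to 54. The other genes were lower in mean and 0 passed. With the replicate number as a block, WRKY70 fell in titles 49 to 51 against titles 43 to 45, as did 0.0879% of probe sets, and the remaining differences against titles 43 to 45 did not pass. Against silwet titles 37 to 39, 4 genes fell in both later SA runs: WRKY18, WRKY33, WRKY53 and WRKY40, the last with differences of -2.39 and -2.62 (limma adjusted p = 0.000180 and 3.06e-05). WRKY70 also fell in SA titles 49 to 51. Among all probe sets 2.76% and 4.22% fell in these comparisons. With the block all 7 genes fell in titles 49 to 51 and 6 in titles 52 to 54, where 4.95% and 7.81% of probe sets did. The added calls were WRKY38 (limma adjusted p = 0.00289) and WRKY6 (0.0469) in the first and WRKY70 (0.0115) and WRKY38 (0.0117) in the second.

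The tests against every silwet run called 0 probe sets for SA titles 49 to 51 and 0 for 52 to 54 (limma). At an unadjusted p under 0.05 there were 202 and 98. These comparisons share their silwet arrays with those of titles 46 to 48.

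Within SA, all 7 genes differed between the 3 title runs, as did 24.6% of all tested probe sets (limma F-test; adjusted p from 9.12e-08 for WRKY40 to 0.00856 for WRKY6). From SA titles 46 to 48 to titles 49 to 51 all 7 genes fell, where 11.8% of probe sets did. The differences were -3.52 for WRKY40, -3.35 for WRKY38, -3.18 for WRKY53, -2.53 for WRKY18, -2.35 for WRKY33, -1.92 for WRKY70 and -1.68 for WRKY6. Between titles 49 to 51 and 52 to 54 the differences were small, -0.23 for WRKY40 to 0.51 for WRKY70, and 0 passed, with 0% of all probe sets.

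Within silwet, 3 of the 7 genes differed between title runs, where 1.61% of all probe sets did: WRKY40 (limma F-test adjusted p = 0.000134), WRKY33 (0.0129) and WRKY53 (0.0215). These 3 were higher in titles 37 to 39 than in both later runs. Titles 40 to 42 and 43 to 45 differed from titles 37 to 39 by -2.04 and -2.56 for WRKY40, by -1.35 and -1.13 for WRKY33 and by -1.23 and -1.42 for WRKY53, and all 6 of these differences passed. Among all probe sets 1.84% and 1.21% fell in the 2 comparisons, and 5.83% had their 3 arrays of titles 37 to 39 above the other 6 silwet arrays, as these 3 genes did. WRKY6, WRKY38, WRKY18 and WRKY70 also had their highest silwet mean in titles 37 to 39 but adjusted p-values of 0.249, 0.529, 0.373 and 0.376 in the F-test. With the replicate block the F-test called the same 3 genes, and WRKY6 fell from titles 37 to 39 to titles 43 to 45 (limma adjusted p = 0.0344), where 2.05% of probe sets fell. With title 37 or title 39 left out, 1 of the 7 genes passed in the F-test, and all probe sets were not counted there. Without replicate 1, 2 or 3, it called 1, 2 and 0 of the 7 genes, where 169, 73 and 0 of 17059 probe sets passed.

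How far silwet titles 37 to 39 came towards SA titles 46 to 48 is given here for each gene as a description. Taking the mean of the 2 later silwet runs as the base, silwet titles 37 to 39 stood 2.30 above it for WRKY40, while SA titles 46 to 48 stood 3.43 above it, so the first was 67.0% of the second on the log2 scale. The share was 64.8% for WRKY33, 62.3% for WRKY6 and 47.1% for WRKY53. It was 27.5% for WRKY18, 24.2% for WRKY70 and 20.9% for WRKY38. With each replicate number left out in turn, the shares ranged from 64.5% to 71.7% for WRKY40 and from 58.2% to 70.4% for WRKY33, and from 10.9% to 29.99% for WRKY38. For WRKY6 the range, 47.0% to 86.8%, was wide. A difference between genes in this share was not tested.

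**Figure D3:**
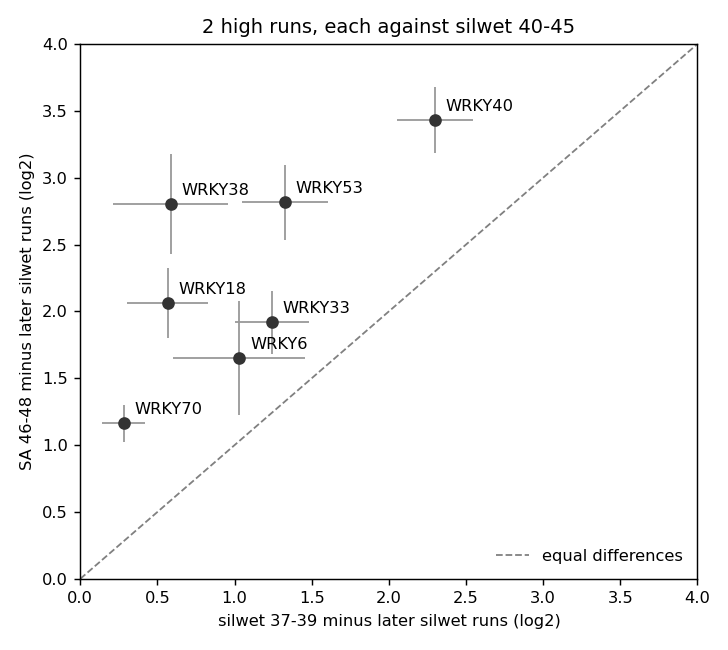
Each gene's log2 difference from the mean of silwet titles 40 to 45 in silwet titles 37 to 39 (x axis) and in SA titles 46 to 48 (y axis); bars are standard errors from the pooled SD within runs, and the dashed line marks equal differences. All 7 genes lie above the line, WRKY40 furthest right (2.30, 3.43), and WRKY70, WRKY38 and WRKY18 have the smallest x values (0.28, 0.59 and 0.57).

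Run means of an RNA quality measure varied along the same lines, though single arrays overlapped. The mean log2 ratio of 3' to 5' signal of the control probe sets for GAPDH, actin and ubiquitin was 1.07 ± 0.13 in SA titles 46 to 48 and 1.09 ± 0.15 in silwet titles 37 to 39 (SD, n = 3). It was 1.29 ± 0.25 and 1.46 ± 0.20 in the later silwet runs and 1.32 ± 0.19 and 1.56 ± 0.33 in the later SA runs, so the 2 runs with high WRKY signals had the lowest mean ratios. Of their arrays, titles 38 and 47 had ratios of 1.27 and 1.22, while titles 42, 50 and 54, which were not among the arrays with high WRKY signals, had 1.04, 1.11 and 1.19. With this ratio as a covariate the same number of WRKY genes, 5, passed in SA titles 46 to 48, and their smallest differences were 0.88 to 2.20. Of all probe sets 178 passed in that fit. The number of WRKY genes that differed between silwet runs was 1 with the covariate, where 152 probe sets did, against 274 without it. Between SA runs 6 WRKY genes differed with the covariate, where 2674 probe sets did, against 4193 without it.

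Over all arrays, without regard to title runs, none of the 7 genes differed between SA and silwet. Differences ran from -0.04 for WRKY70 and -0.04 for WRKY33 to 0.46 for WRKY38, with a median of 0.22 (-0.02 over all probe sets) and limma adjusted p = 0.9998 for each. WRKY38 had a level of 7.65 ± 1.67 with SA and 7.19 ± 0.58 with silwet (log2, SD, n = 9), and the 95% interval of the difference was -0.63 to 1.55. WRKY70 had 9.95 ± 0.88 and 9.997 ± 0.25, with an interval of -0.61 to 0.53. The spread here includes the variation from run to run, and the upper bounds of the intervals exceed 1 log2 unit for WRKY38, WRKY40, WRKY53 and WRKY18. In this limma test 0 probe sets passed (0%), with 233 at an unadjusted p under 0.05, and by a Wilcoxon test there were 0 calls and 223 probe sets under that unadjusted value. The F-test of whether the SA difference varied with the replicate number called 0 as well (97 under that value), and the 7 genes had unadjusted p-values of 0.629 to 0.997.

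Arrays of one replicate number also deviated together within title runs, which was tested after it had been seen. WRKY38 was below its run mean on all 6 arrays of number 2, by 0.52 on average, and above it on all 6 of number 3, by 0.38 on average. WRKY33 was likewise below on 6 of 6 arrays of number 2 and above on 6 of 6 of number 3, with mean deviations of -0.29 and 0.31. WRKY18 and WRKY70 were below their run means on 6 of 6 arrays of number 2 as well, by 0.32 and 0.16 on average. WRKY6 was high on 6 of 6 arrays of number 3, by 0.50 on average. In a limma F-test with title runs in the fit, WRKY38, WRKY33 and WRKY6 differed between replicate numbers (adjusted p = 0.00423, 0.00925 and 0.0459), where 9.89% of all probe sets did. WRKY18 and WRKY70 had adjusted p-values of 0.0512 and 0.0671, and WRKY53 and WRKY40 had 0.214 and 0.223.

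**Figure D4:**
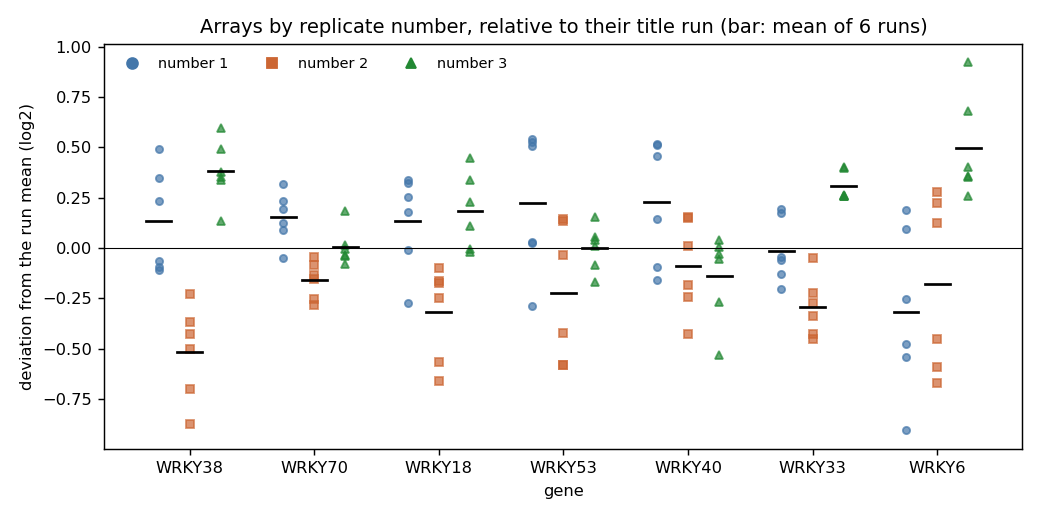
Deviation of each array from the mean of its title run in log2(signal + 16), by gene and replicate number (6 arrays each); bars are means. Number 2 lies below 0 on all 6 arrays for WRKY38, WRKY70, WRKY18 and WRKY33, and number 3 lies above 0 on all 6 for WRKY38, WRKY33 and WRKY6.

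The 7 genes followed each other to different degrees within runs. Given as a description, the Pearson correlation of deviations from run means over the 18 arrays, which share their runs and replicate numbers, was 0.85 for WRKY38 with WRKY18 and 0.85 for WRKY70 with WRKY18. It was 0.79 for WRKY38 with WRKY33 and 0.71 for WRKY53 with WRKY40. WRKY40 had 0.02 with WRKY33, 0.09 with WRKY38 and -0.07 with WRKY6. The median over the 21 pairs was 0.51. Thus WRKY40 and WRKY33, which both were high in silwet titles 37 to 39, did not vary together between arrays of a run.

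Of the 72 WRKY loci in the gene table, 5 further ones could be measured by name, and none of them passed in SA titles 46 to 48. WRKY22, a factor of the early response to bacterial flagellin, had levels of 6.21 ± 0.65 there and 6.22 ± 0.60 in silwet titles 37 to 39, against 5.21 ± 0.14 and 4.96 ± 0.24 in the later silwet runs (log2, SD, n = 3). It was dim, with signals from 9.85 to 105, and differed between silwet runs (limma F-test adjusted p = 0.0483) and between SA runs (0.0330). Its 2 high runs were those in which WRKY40 was high, at nearly equal levels. ZAP1 (WRKY1), WRKY20, WRKY42 and WRKY47 passed in neither F-test. Their F-test adjusted p-values were at least 0.33.

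In the lists of related genes few loci could be measured by name. Of 13 loci listed under NPR1 and TGA signalling, 2 were tested and 2 rose in SA titles 46 to 48, where 1% of all probe sets did. They were GRX480, a glutaredoxin that binds TGA factors, and UGT76B1, a glucosyltransferase acting on salicylic acid. Their smallest differences were 1.28 and 2.73 (limma adjusted p = 0.00835 and 0.00275). The list was chosen with earlier results of these data known, so these 2 calls do not describe the pathway. Of 10 loci of salicylic acid synthesis and the EDS1 node, only SAG101 was tested, and it did not pass (smallest difference 0.36). PDF1.2 and PDF1.2b, jasmonate markers that WRKY70 is known to restrain, did not pass in SA titles 46 to 48 (2 tested of 5 loci). PDF1.2 had levels of 6.69 ± 0.97 in SA titles 46 to 48 and 6.87 ± 0.96 in titles 49 to 51, the runs in which WRKY70 was highest and lowest. Its silwet levels were 7.11 ± 0.81 (titles 37 to 39), 10.24 ± 1.09 (40 to 42) and 7.88 ± 1.98 (43 to 45). PDF1.2b had 8.05 ± 1.07 and 8.21 ± 1.06, against 8.34 ± 1.21, 10.63 ± 0.47 and 9.35 ± 1.27. A relation of these levels to WRKY70 was not tested. None of the 9, 8 and 6 loci in the lists of kinases, partners and targets of WRKY33, of WRKY53, WRKY6 and WRKY70, and of WRKY18 and WRKY40 was measured by name, nor were the 6 flower and seed loci.

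Of 16 touch and wound loci, 2 were tested, and 0 passed in SA titles 46 to 48. STZ (ZAT10), a zinc finger factor of many rapid stress responses, had levels of 9.47 ± 0.06 in SA titles 46 to 48 and 9.04 ± 0.62 in silwet titles 37 to 39, against 7.99 ± 0.20 and 7.31 ± 0.19 in the later silwet runs. CML38, a calmodulin-like protein, had 6.12 ± 0.20 and 6.40 ± 0.27, against 5.92 ± 0.07 and 5.14 ± 0.08. STZ and CML38 differed between silwet runs (limma F-test adjusted p = 0.00519 and 0.00197) and between SA runs (6.80e-05 and 0.00203), as did 1.61% and 24.6% of all probe sets. STZ, like the 7 WRKY genes, had its highest mean in SA titles 46 to 48, whereas CML38 had it in silwet titles 37 to 39. Of the 4 leaf photosynthesis genes, 1 fell in SA titles 46 to 48, where 0.692% of all probe sets did. This was PRK (smallest difference -0.57, limma adjusted p = 0.0301), and 0 of 2 root genes changed. The part of touch or wounding and of tissue composition in the WRKY differences was not tested.

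The named genes whose pattern was most like that of each WRKY gene were chosen by Pearson correlation over the 18 arrays, which is given without a test since the arrays fall into runs. The 5 WRKY genes whose probe sets the gene table does not name were not candidates. Among the 7 themselves, WRKY53 with WRKY40 had 0.97 and WRKY38 with WRKY18 had 0.98, above most or all of the values that follow for WRKY53 and WRKY38. Among candidates, WRKY53 was closest to AT1G72900 (0.98), AT3G09010 (0.96) and GRX480 (0.96). WRKY70 was closest to AT1G26640 (0.98), AT1G16670 (0.98) and AT1G13470 (0.98). WRKY38 and WRKY18 had the same 3 nearest genes, AT3G29240, AT1G34750 and AT1G75510, with correlations of 0.96 to 0.98. WRKY40 was closest to AT1G72900 (0.97), WRKY53 (0.97) and AT2G43620 (0.96), and WRKY33 to AT1G51790 (0.97), AT1G66880 (0.97) and AT5G24810 (0.96). WRKY6 had the lowest values, 0.92 with AT5G60800 and 0.91 with AT5G48540 and AT3G47380. These genes were chosen on the same 18 arrays, SA titles 46 to 48 included, so their level in that run is not separate evidence. With run means removed, the correlation of WRKY53 was 0.82 with AT1G72900, 0.32 with AT3G09010 and 0.58 with GRX480.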

How the data were processed

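The authors deposited one intensity per probe set and array on a linear scale, from MAS5 per the submitters' processing notes; the MAS5 version and settings are not given there. Arrays had been brought to a common level (trimmed means, without 2% of values at each end, of 100.008 to 100.01), which hides any difference in total RNA, and low intensities carry more noise. No 2 arrays held identical values. Of 22810 probe sets, 64 controls and those with a mean signal under the 25th percentile were left out, and 17059 were tested as log2(signal + 16). The number of arrays limits the precision.

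Tests used limma 3.58.1 in R 4.3.3 (lmFit, eBayes with a trend, Benjamini-Hochberg over all probe sets tested, threshold 0.05). The 9 SA arrays were compared with the 9 silwet arrays. In a second fit with the 6 title runs as groups of 3, each SA run was compared with every silwet run: a probe set passed when it had the same sign against all 3 and the largest of the 3 p-values, adjusted, was under 0.05, and its difference is the smallest of the 3. All 15 pairs of runs and F-tests over the runs of a treatment came from the same fit. Figures used matplotlib 3.10.9 in Python 3.11.15. Gene names came from the platform's gene table (13513 probe sets with 1 gene), updated to the TAIR10.1 locus table.

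The members, the gene lists and the tests were chosen with earlier results of these data known. The genes named are the 7 members, of each list those that passed (up to 4) or else the 2 with the smallest p, and for each member the 3 most correlated named probe sets; SAG101, the photosynthesis and root genes and the remaining WRKY genes are named beyond this. Same-numbered arrays shared deviations between the 2 treatments (correlations of mean deviations of 0.757, 0.563 and 0.645 for numbers 1, 2 and 3), so the numbers were taken to pair the arrays. The main fits did not include this pairing, and results with the replicate block are given where they change a call. Alternatives were the offset, quantile normalization, the filter, the block, no variance trend, array weights and an RNA quality covariate. In others each replicate number was left out, or titles 40, 43 and 52, which all have replicate number 1. For the 9 against 9 arrays the alternatives also included the title run as a random block and a Wilcoxon test. Leaving out single arrays and the test of replicate numbers within runs were chosen after seeing the data. No sequences are shown.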

Additional observations from a re-analysis of the deposited data

How the results depend on the processing

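The limits of these results are 3 arrays per title run, a division made with the data in view, and a replicate number that moves several of the genes. In SA titles 46 to 48 the count of WRKY genes that passed was 5 in the main setting and 4 to 6 in the other settings that kept all replicate numbers, and the sign of every gene's difference was positive in all settings. Leaving out a replicate number gave 0 to 5, with 2 to 415 probe sets passing, and leaving out 1 array gave 1 to 5 and 61 to 539. The count over all probe sets, 289, was 698 with the replicate block, 493 without titles 40, 43 and 52, 1056 with array weights and 178 with the RNA quality covariate. The block changed 1 WRKY call in this test, that of WRKY33, and over the 105 differences between pairs of runs it added 7 calls and removed none. Fewer arrays remain in each setting without a replicate number, also in that without replicate 1, where 5 WRKY genes and 415 probe sets passed. The cause was not tested.

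Between SA runs, 4193 probe sets differed in the main setting, 2674 with the covariate and 1418 to 4084 without a replicate number, with 6 or 7 of the WRKY genes, also with single arrays left out. Between silwet runs, 274 differed, against 786 with the block, 701 with array weights, 152 with the covariate and 0 to 169 without a replicate number. There 3 WRKY genes passed, 1 with the covariate, 0 to 2 without a replicate number and 1 to 3 without 1 array. Over the 15 pairs of runs and 7 genes, 48 differences passed, 55 with the replicate block and 32 to 52 in the other settings. Replicate numbers within runs differed at 1687 probe sets, at 1091 without the filter, 231 without titles 40, 43 and 52 and 191 to 820 without a replicate number, with 0 to 2 WRKY genes in the last.

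Over all arrays 0 probe sets passed, or 1 without the filter. Some small differences between SA and silwet changed sign and none passed. With array weights they were -0.40 for WRKY53, -0.0859 for WRKY6, -0.19 for WRKY38, -0.27 for WRKY18 and -0.39 for WRKY40, while WRKY33 moved from -0.04 to -0.48 and WRKY70 from -0.04 to -0.41, so that all 7 were negative. WRKY6 had -0.0313 without titles 40, 43 and 52, and WRKY33 had 0.0446 with the covariate. With a replicate number left out, WRKY6 ranged from -0.0266 to 0.351 and WRKY70 from -0.101 to 0.0176.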
